A study of Mus musculus with 12 samples.

Results

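RNA-Seq of quadriceps was used to find the transcripts that still differed from wild-type (WT) muscle in Gaa knock-out mice given a liver-directed gene therapy vector. The comparison was made between 4 libraries labelled AAV and 4 labelled WT, which are 8 of the 12 libraries of the series, over every gene with enough signal. The 4 libraries labelled KO were set beside them to sort the differences. Samples were chosen by their labels alone. All mice were of strain C57BL/6 and 6 months old at harvest. WT mice were untreated, KO mice carried the GAA knock-out and received PBS, and AAV mice carried the same knock-out and received AAV2/8-LSPhGAApA by tail vein at 2 months of age (2e12 vg/kg, 4 months before harvest). No WT mouse received PBS or vector, so genotype and injection cannot be told apart in AAV against WT. The vector drives human GAA from a liver-specific promoter, so it is meant to act on muscle through enzyme that the liver secretes. Knock-out mice were male and the sex of WT mice is not given in the sources used here, while the Y-linked gene Ddx3y was at 1485, 739, 2651 and 1749.6 in WT and 2829, 2239, 1611 and 1336 in AAV, on the normalized count scale used throughout. Each library is labelled as a separate animal.

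Gaa encodes acid alpha-glucosidase, the lysosomal enzyme that breaks glycogen down to glucose, and its loss is the cause of Pompe disease, in which glycogen-filled lysosomes accumulate in heart and skeletal muscle. Secreted enzyme carries mannose 6-phosphate and is taken into muscle fibres through its receptor, which is the basis of both enzyme replacement and liver-directed gene therapy. Quadriceps of the mouse is mostly fast glycolytic fibres, and the bulk RNA also holds RNA from vessels, nerve, fat and immune cells. In such bulk samples fewer cells of a type and less RNA per cell cannot be told apart.

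Total reads counted per library were between 32299356 and 47379737 for WT and between 22122233 and 31974197 for AAV, so every AAV library was shallower than every WT library. Fast fibre genes, which define this muscle, were high in every library, with summed normalized counts of 15 contractile genes of 4950174 to 8391317 in AAV and 5944501 to 7240753 in WT. The targeted gene went against the labels. Gaa (ENSMUSG00000025579, chromosome 11, 119267887 to 119285454, + strand, GENCODE M21 on GRCm38, as all coordinates here) was at 343, 14640.2, 324 and 460.3 in the libraries labelled WT, in the order of animals 1 to 4 that all values here follow. It was at 947, 587, 499.6 and 9854 in those labelled AAV and at 12151, 13074, 11936 and 12895 in those labelled KO. The library labelled WT animal 2 and the library labelled AAV animal 4 were thus far above the other 3 of their groups, and the libraries labelled KO were above those 3 of WT rather than below them. With these libraries in, AAV minus WT was 0.47 ± 1.30 (SE, log2; adjusted p = 0.869, limma). Counts cover the whole gene and do not show whether a transcript is intact. For Gm23935, described below, the library labelled WT animal 2 was at 15582 and WT libraries at 1667 or more, and the library labelled AAV animal 4 was at 2.75 and AAV and KO libraries under 100. Gm23935 was chosen after its values were seen, for its large difference between the labelled groups, so it cannot test the labels. It also cannot tell AAV from KO libraries. Whether the knock-out allele is transcribed was not tested. The names of the gene classes below therefore rest on the labels. According to its methods, the study also used part of the quadriceps to assay GAA activity and glycogen, measures that are not used here. On the first principal component of 11071 genes (56.1% of the variance), the library labelled WT animal 3 stood apart from the other WT libraries at 14.1, against -37.8, -60.9 and -54.9. AAV animals 1 to 4 were at -24.9, 1.75, 13.2 and -46.4 and KO libraries between 46.1 and 51.1. WT, AAV and KO below mean the libraries labelled so, and counts of calls without single libraries are given with the results.

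**Figure D1:**
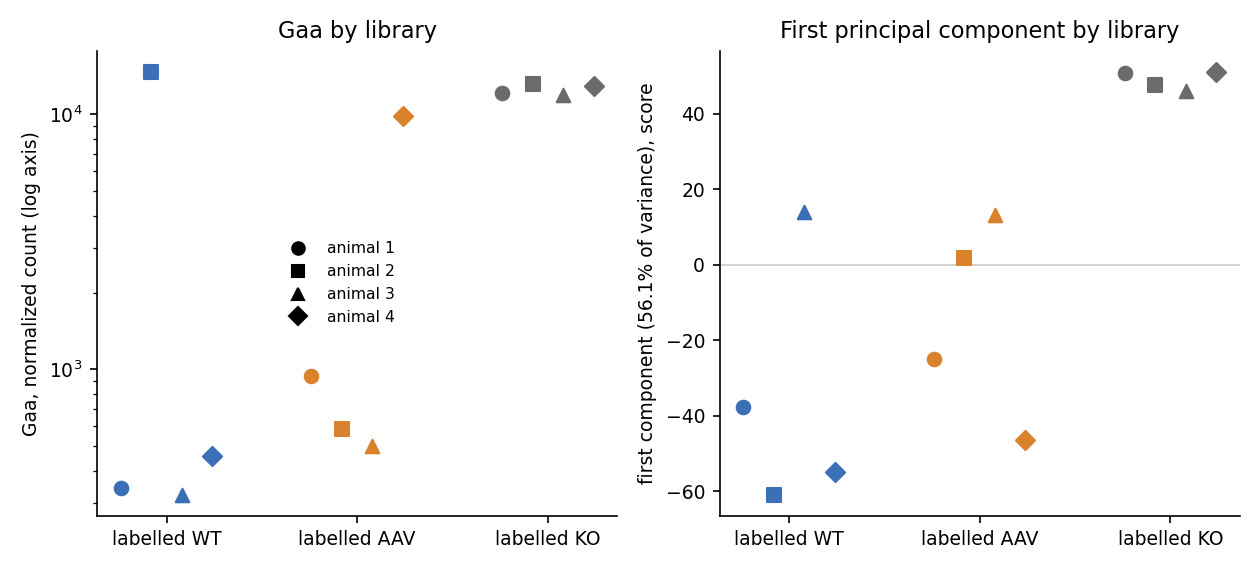
Left, Gaa normalized count in each of 12 libraries on a log axis; right, score of each library on the first principal component (56.1% of variance); symbols number the animals and colours mark the labelled groups. WT animal 2 (14640) and AAV animal 4 (9854) are near the KO libraries for Gaa but not on the component, where WT animal 3 stands apart from the other WT libraries.

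Among called genes those higher in AAV than in WT outnumbered those lower, and most of what differed between KO and WT was not called between AAV and WT. Values are counts per gene divided by 1 size factor per library. A difference is a log2 fold change on the log2(normalized count + 1) scale, which understates the change of genes with few reads, and a gene was called where limma gave an adjusted p (Benjamini-Hochberg) under 0.05 and the log2 fold change reached 1 in either direction. Of 14939 genes tested between AAV and WT, 142 were called (0.951%), 109 higher in AAV (0.73%) and 33 lower (0.221%). The same rule called 2070 of 14859 genes between KO and WT (13.9%) and 1338 of 14894 between AAV and KO (8.98%). The 142 called genes had no overlap between the AAV and WT libraries, and over all tested genes 6.69% had every AAV value above every WT value and 4.97% every AAV value below. The median log2 fold change of all tested genes was -0.03 and that of the called genes was 1.43 in absolute size. With libraries scaled by total reads in place of the deposited size factors, 250 genes were called, 224 higher and 26 lower (89.6% higher, against 76.8%), and the median of all genes moved from -0.03 to 0.12.

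Genes were sorted by all 3 comparisons, which share libraries, and 14384 genes were tested in each. A called gene was uncorrected where KO against WT was also called in the same direction, overcorrected where it was called in the opposite direction, and new after vector where AAV against KO was called, fold threshold included, in the same direction as AAV against WT and KO against WT was not called. By this rule 68 genes were uncorrected (45 higher and 23 lower than WT), 11 were new after vector (10 higher and 1 lower) and 0 were overcorrected. In the remaining 59 genes (54 higher and 5 lower) the KO mean lay between the WT and AAV means in all 59, and KO differed from WT at an adjusted p under 0.05, whatever the fold, in 40 of them (27.6% over all genes tested between KO and WT). A KO mean outside that span would mostly have put a gene in another class, so the position of KO follows largely from the rule. Of 1957 genes called between KO and WT, 3.47% were thus uncorrected and 1889 were not called between AAV and WT. Those 1889 are not shown to be at the WT level. For 345 of the 1957 (17.6%) the 95% confidence interval of AAV minus WT lay inside a log2 fold change of -1 to 1, and of the 1889 that were not called it reached past 1 in either direction for the other 1544.

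**Figure D2:**
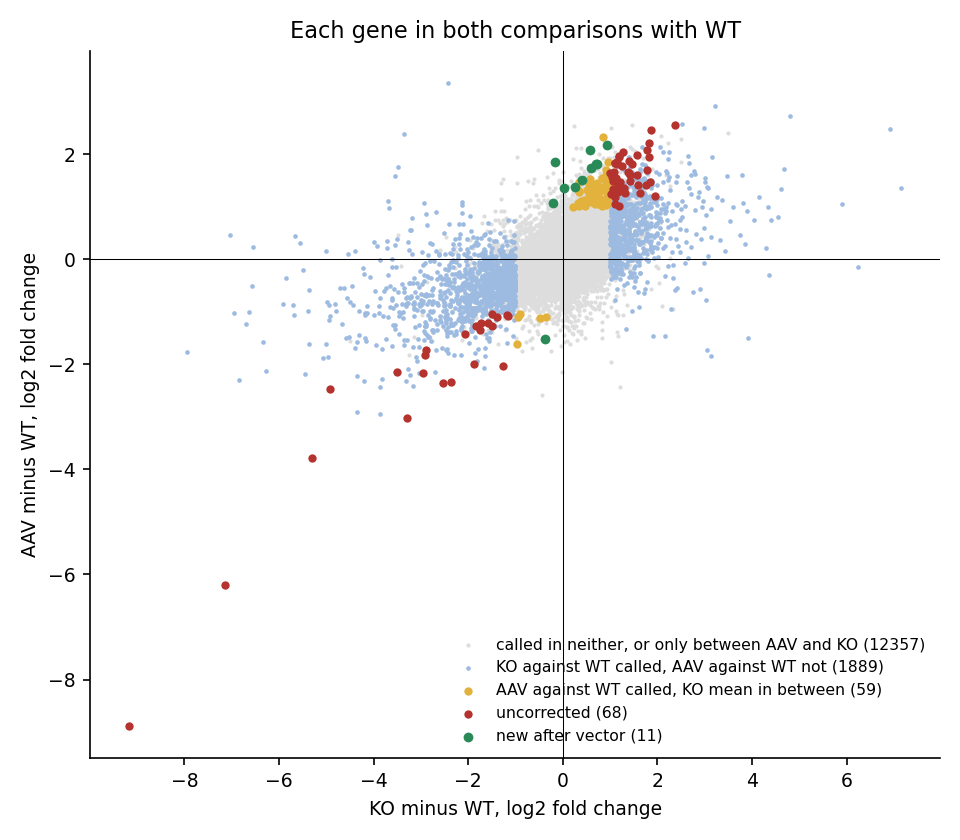
Each point is 1 of the 14384 genes tested in all 3 comparisons, with the log2 fold change of KO minus WT on the horizontal axis and of AAV minus WT on the vertical axis. The 68 uncorrected genes (red) lie in the upper right and lower left, the 11 new genes (green) lie within 1 of 0 on the horizontal axis, and the classes were set by these values; both axes share the WT libraries.

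The set of called genes depended on single libraries, so called genes named below are given with the number of the 8 analyses, each with 1 library left out, in which they were still called. Between 18 genes (without AAV animal 2) and 330 genes (without WT animal 3) were called in them. The other counts were 38, 39 and 62 without WT animals 1, 2 and 4 and 35, 53 and 83 without AAV animals 1, 3 and 4. Of the 142 genes, 18 were called in all 8 and 9 in none. With WT animal 2 and AAV animal 4, the libraries with high Gaa, left out together, 10 genes were called, of which 9 were among the 142. The 9 were Agrn, Als2cl, Fam193b, Gm23935, Hist1h2al, Krba1, Map4k2, Mir5115 and Ushbp1. In that analysis 134 of the 142 kept a log2 fold change of at least 1. The signs of the 142 could not change, since their AAV and WT values did not overlap.

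**Figure D3:**
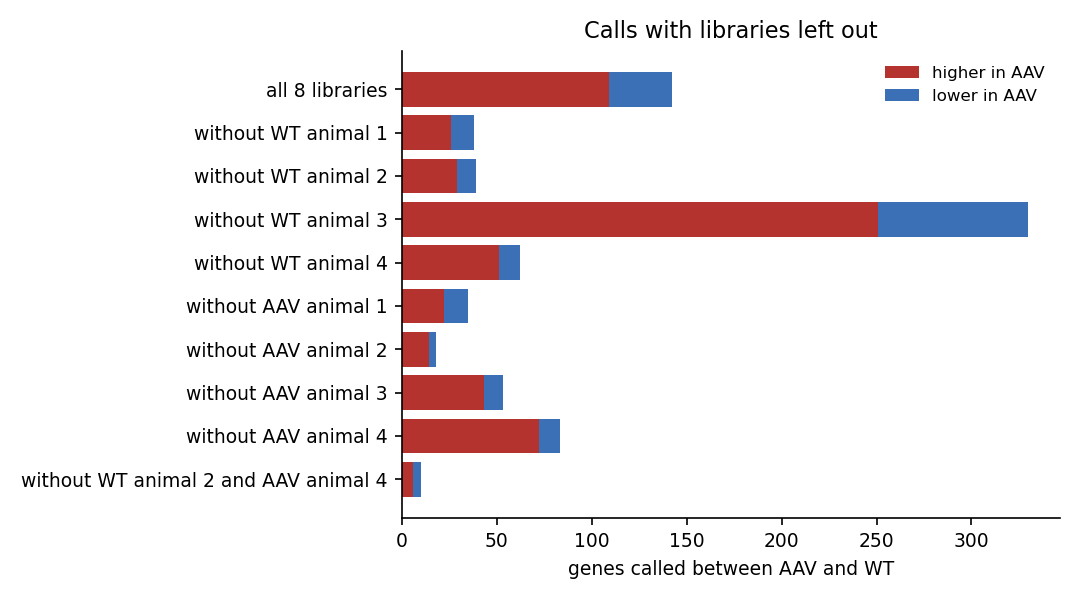
Bars give the number of genes called between AAV and WT with all 8 libraries and with the library named on the vertical axis left out, split into genes higher (red) and lower (blue) in AAV. Leaving out WT animal 3 raised the count from 142 to 330, and each other single omission lowered it, to 18 without AAV animal 2.

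Among the uncorrected genes that were higher, Egfl7, Ccm2l, Arap3 and Robo4 are known from vessels, a grouping made after their values were seen. Egfl7 (chromosome 2, 26580014 to 26593120, + strand), a protein that endothelial cells secrete and whose gene hosts a microRNA, had normalized counts of 381, 518, 581 and 677 in WT and 1291, 1656, 1598 and 1448 in AAV. The groups did not overlap (log2 fold change 1.497 ± 0.19 (SE), adjusted p = 0.00973, limma), KO libraries were at 1101, 1409, 1030.0 and 906, and it was called in 7 of 8 analyses, lost without AAV animal 2, highest adjusted p 0.0595. Ccm2l, a relative of the cerebral cavernous malformation gene Ccm2 that acts in endothelium, was at 93.2, 102, 123 and 68.3 in WT and 438, 409, 305 and 256 in AAV (log2 fold change 1.85 ± 0.24 (SE), adjusted p = 0.0124). Without overlap between the groups, Ccm2l was called in 7 of 8 analyses, lost without AAV animal 2, highest adjusted p 0.0685. Arap3, a PI3-kinase-regulated GTPase-activating protein, was at 243, 247, 349.8 and 246 in WT and 878, 758, 774 and 791 in AAV (log2 fold change 1.57 ± 0.16 (SE), adjusted p = 0.00567) and was called in 8 of 8 analyses. WT animal 3 was the highest of WT and still well below every AAV library. Robo4, an endothelial guidance receptor named after its values were seen, was at 209, 151, 318 and 146 in WT and 583, 582, 579 and 391 in AAV (log2 fold change 1.42 ± 0.26 (SE), adjusted p = 0.0437). It was called in 2 of 8 analyses, those without WT animal 3 or AAV animal 4, highest adjusted p in the others 0.142. Vash1, which encodes an inhibitor of vessel growth made by endothelium, was lower instead, at 140.3, 217, 226 and 216 in WT and 86.8, 83.6, 67.3 and 89.02 in AAV (log2 fold change -1.26 ± 0.21 (SE), adjusted p = 0.0311), and was called in 2 of 8 analyses, those without WT animal 1 or 3, highest adjusted p in the others 0.11.

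Agrn and Sned1 encode matrix proteins. Agrn (ENSMUSG00000041936, chromosome 4, 156165290 to 156197488, - strand) encodes agrin, the signal that gathers acetylcholine receptors at the neuromuscular junction. Its normalized counts were 206, 249, 192 and 208 in WT, 754, 775, 622 and 583 in AAV and 432, 419.9, 481 and 481 in KO. All 3 groups were separate, with AAV above KO and KO above WT. The difference from WT was 1.67 ± 0.16 (SE, log2; adjusted p = 0.00462, limma) and that from KO was 0.58 (adjusted p = 0.0124), and Agrn was called in 8 of 8 analyses. Sned1, a matrix protein with many EGF-like and fibronectin repeats, was at 216, 188, 157 and 218 in WT and 1053, 874, 516 and 739.7 in AAV (log2 fold change 1.99 ± 0.23 (SE), adjusted p = 0.00664). The KO libraries, at 561, 462, 812 and 519, overlapped those of AAV, and Sned1 was called in 8 of 8 analyses. Of matrix genes named after their values were seen, Tnxb (tenascin-X) rose by 1.01 and Adamts10, a metalloproteinase-like protein bound to microfibrils, by 1.82 (adjusted p = 0.0284 and 0.0255, limma). Tnxb was called in 2 of 8 analyses, those without WT animal 3 or AAV animal 4, highest adjusted p in the others 0.111. Adamts10 was called in 3 of 8 analyses, those without WT animal 3 or 4 or AAV animal 3, highest adjusted p in the others 0.108.

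Als2cl, Rasgrp2 and Pde4c, named by rule, were among the genes that rose. Als2cl (ENSMUSG00000044037, chromosome 9, 110879870 to 110900530, + strand), a relative of the Rab5 exchange factor alsin, had normalized counts of 120.4, 111, 116 and 102 in WT, 513, 516, 432 and 405 in AAV and 265, 334, 275 and 231 in KO. Every AAV value was above every KO value, and every KO value was above every WT value. Its adjusted p, shared with Ushbp1 and Hist1h2al, was the lowest of the comparison (log2 fold change 2.04 ± 0.16 (SE), adjusted p = 0.00232). It differed from KO by 0.76 (adjusted p = 0.00834) and was called in 8 of 8 analyses. Rasgrp2, an exchange factor that activates Rap1, was at 140.3, 169, 235 and 139 in WT and 934, 713, 600.0 and 441 in AAV (log2 fold change 1.95 ± 0.26 (SE), adjusted p = 0.0125). Pde4c, a phosphodiesterase that breaks down cAMP, was at 67.9, 91.4, 82.8 and 77.05 in WT and 313, 306, 201 and 339 in AAV (log2 fold change 1.83 ± 0.21 (SE), adjusted p = 0.00664). In both genes every AAV library was above every WT library. Rasgrp2 was called in 7 of 8 analyses, lost without AAV animal 2, highest adjusted p 0.0685, and Pde4c was called in 8 of 8 analyses. Other called genes that act on cAMP, named after their values were seen, were the adenylyl cyclase genes Adcy4 (1.28, adjusted p = 0.0284) and Adcy6 (1.07, adjusted p = 0.04) and Rapgef3, an exchange factor that cAMP activates (1.33, adjusted p = 0.0206). They were called in 1, 2 and 4 of 8 analyses. The list of PKA and cAMP signalling, which holds none of these 4 genes, had 0 of 19 called (0.951% over all genes) and a median of -0.11.

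The called gene with the largest rise was Olfr78, followed by Ucn2, both at low levels. Ucn2, which encodes urocortin 2, a peptide ligand of the corticotropin-releasing factor receptor of muscle, was at 9.95, 15.95, 11.4 and 28.3 in WT and 99.2, 72.5, 86.2 and 97.3 in AAV (log2 fold change 2.47 ± 0.33 (SE), adjusted p = 0.0132). It was called in 6 of 8 analyses, lost without AAV animal 1 or 2, highest adjusted p 0.0606. Olfr78, an olfactory receptor also found in vessel walls, was at 18.1, 7.44, 43.02 and 15.6 in WT and 103, 183, 123 and 57.8 in AAV (log2 fold change 2.55 ± 0.51 (SE), adjusted p = 0.0481). The groups were separated by less than in Ucn2, since WT animal 3 and AAV animal 4 were near each other, and Olfr78 was called in 2 of 8 analyses, those without WT animal 3 or AAV animal 4, highest adjusted p in the others 0.159. Ovgp1, the oviductal glycoprotein, was at 57.9, 39.3, 32.5 and 90.7 in WT and 256, 153, 182 and 183 in AAV (log2 fold change 1.88 ± 0.32 (SE), adjusted p = 0.0347). All AAV libraries were above all WT libraries, and Ovgp1 was called in 2 of 8 analyses, those without WT animal 3 or 4, highest adjusted p in the others 0.115.

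Krba1, a gene with a KRAB-A domain, was at 1022, 1506, 1087 and 1281 in WT, 4770.0, 3434, 3483 and 3272 in AAV and 3218, 3075, 3328 and 3304 in KO (log2 fold change 1.61 ± 0.18 (SE), adjusted p = 0.00567). The AAV and KO values of Krba1 overlapped (difference 0.19, adjusted p = 0.273). Fam193b was at 392, 651, 327 and 569 in WT, 2047, 1617, 1547 and 1552 in AAV and 937, 1023, 1159 and 914 in KO (log2 fold change 1.84 ± 0.23 (SE), adjusted p = 0.00971), so that AAV stood above KO as well (difference 0.74, adjusted p = 0.00572). Krba1 and Fam193b were each called in 8 of 8 analyses. Meg3 and Rian, noncoding transcripts of the imprinted Dlk1-Dio3 region of chromosome 12 and named after their values were seen, rose. Meg3 was at 333, 299.8, 339 and 566 in WT, 1717, 1407, 1249.5 and 1449 in AAV and 1254, 1237, 1651 and 1156 in KO (log2 fold change 1.96 ± 0.21 (SE), adjusted p = 0.00567), and was called in 8 of 8 analyses. Rian was at 69.7, 47.8, 111 and 80.95 in WT and 198, 182, 222 and 194 in AAV (log2 fold change 1.41 ± 0.25 (SE), adjusted p = 0.04). AAV was above WT in both genes in every library, while Rian was called in 1 of 8 analyses, that without WT animal 3, highest adjusted p in the others 0.128. Meg3 has 1 near-identical annotated copy.

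**Figure D4:**
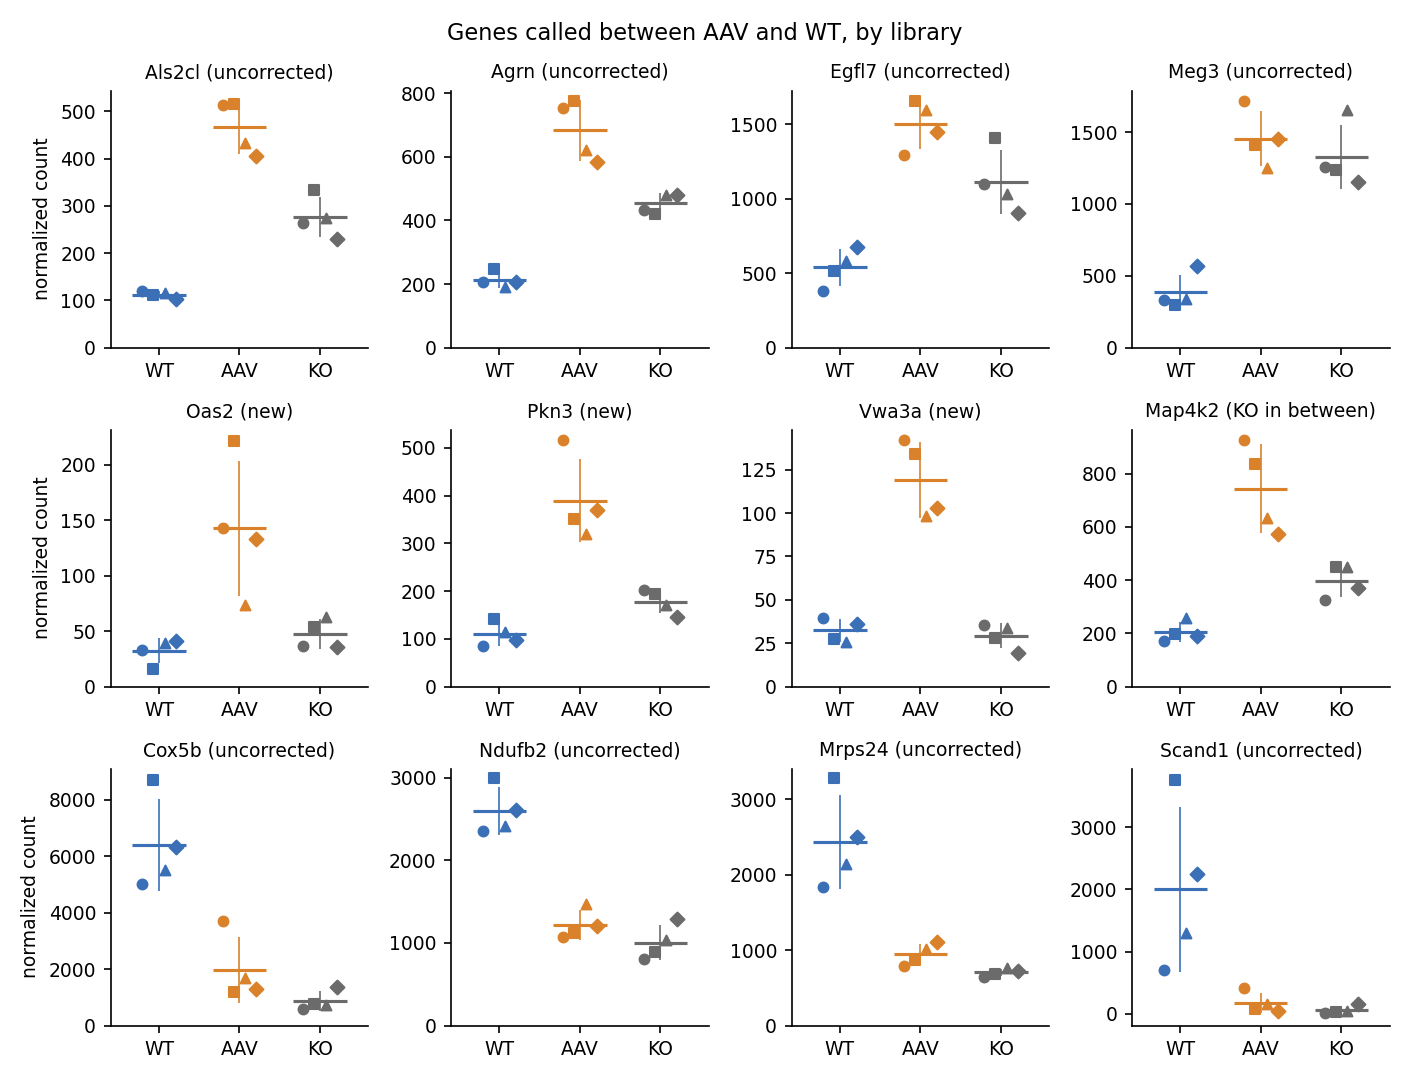
Normalized count (linear axis) of 12 called genes in each library by labelled group; symbols number the animals, horizontal lines are group means and vertical lines ± 1 SD (n = 4). In the upper row AAV lies above WT with KO between or beside it, in the middle row Oas2, Pkn3, Vwa3a and Map4k2 have every AAV library above every KO and WT library, and in the lower row AAV lies below WT with KO lowest on average.

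Compared with KO, the uncorrected genes split by direction. Of the 45 higher genes, 36 were further from WT in AAV than in KO, and of the 23 lower genes 2 were. The genes were selected by the same fold changes, and the share over all genes was not computed. These 2 counts therefore only describe the selected set. At an adjusted p under 0.05 (limma), 10 of the 68 uncorrected genes lay further from WT in AAV than in KO and 7 lay closer. Over all genes tested between AAV and KO, 26.3% reached that adjusted p, so the share among the uncorrected genes was near that of all genes. The other 51 showed no such difference between AAV and KO, which does not show that they were alike.

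The uncorrected genes that were lower included the called genes with the largest differences, Gm23935 and Mir5115. Gm23935, annotated as a microRNA gene (chr16:11144125-11144181, + strand, GRCm38), had normalized counts of 1667, 15582, 14618 and 9842 in WT, 74.4, 11.1, 21.3 and 2.75 in AAV and 10.6, 7.70, 8.70 and 33.6 in KO. Its GENCODE transcript is shown because it carries the largest fold change and because of its base composition, and no base is marked by capitals:
Gm23935: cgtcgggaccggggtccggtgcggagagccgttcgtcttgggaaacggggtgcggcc
The 57 bases are 73.7% G or C, lie on the strand opposite the gene Zc3h7a, and have 3 near-identical copies in the annotation (at least 90% identity over at least 50% of the length). WT libraries were at 1667 or more and AAV and KO libraries under 100, with a log2 fold change of -8.88 ± 0.93 (SE, adjusted p = 0.00567), and Gm23935 was called in 8 of 8 analyses. Mir5115 was at 265, 6162, 459 and 575 in WT and 33.1, 13.1, 7.09 and 2.75 in AAV, where WT animal 2 alone was above 1000 (log2 fold change -6.21 ± 0.96 (SE), adjusted p = 0.0237). It was called in 5 of 8 analyses, lost without WT animal 4 or AAV animal 2 or 3, highest adjusted p 0.1. Both genes were named after their values were seen.

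Several uncorrected falls were of nuclear genes of mitochondrial proteins, a grouping made after their values were seen, and the mitochondrial glycine cleavage gene Amt was higher instead (1.55, adjusted p = 0.0486, called in 0 of 8 analyses, highest adjusted p 0.148). Ndufb2 (ENSMUSG00000002416, chromosome 6, 39592574 to 39603382, + strand), a subunit of complex I, had normalized counts of 2354, 2999, 2415 and 2613 in WT, 1068, 1118, 1467 and 1209.5 in AAV and 801, 886, 1035 and 1286 in KO (log2 fold change -1.10 ± 0.15 (SE), adjusted p = 0.0132). AAV and KO overlapped, and both lay below every WT library. Cox5b, a subunit of complex IV, was at 5014, 8704, 5513 and 6344 in WT and 3702, 1177, 1684 and 1306 in AAV (log2 fold change -1.83 ± 0.34 (SE), adjusted p = 0.0437), with AAV animal 1 near the WT range and the other 3 far below it. The KO libraries were lower on average, at 586, 782, 742 and 1379, and the difference between AAV and KO had an adjusted p of 0.04995. Mrps24, of the small subunit of the mitochondrial ribosome, was at 1835, 3276, 2137 and 2504 in WT and 797, 871, 1013 and 1106 in AAV (log2 fold change -1.34 ± 0.20 (SE), adjusted p = 0.0206). Pyurf, whose product acts in mitochondrial methylation and complex I assembly, was at 721, 884, 816 and 704 in WT and 402, 367, 406 and 316 in AAV (log2 fold change -1.07 ± 0.15 (SE), adjusted p = 0.0149). Mrps24 and Pyurf had every AAV library below every WT library. Ndufb2 was called in 6 of 8 analyses, lost without AAV animal 1 or 2, highest adjusted p 0.0819. Cox5b was called in 2 of 8 analyses, those without WT animal 3 or AAV animal 1, highest adjusted p in the others 0.138. Mrps24 was called in 5 of 8 analyses, lost without WT animal 4 or AAV animal 1 or 2, highest adjusted p 0.1, and Pyurf was called in 5 of 8 analyses, lost without WT animal 1 or AAV animal 2 or 4, highest adjusted p 0.0869. Fdx1, the mitochondrial ferredoxin, and Mpc2, of the mitochondrial pyruvate carrier, fell by 1.21 and 1.07 on the log2 scale (adjusted p = 0.0248 and 0.04, limma) and were named after their values were seen. Fdx1 was called in 4 of 8 analyses, lost without WT animal 2 or 4 or AAV animal 1 or 2, highest adjusted p 0.109, and Mpc2 was called in 0 of 8 analyses, highest adjusted p 0.133. Ndufb2 and Cox5b each have 1 near-identical annotated copy, so their counts are less certain.

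Scand1, H2afj and Mafa had a wide spread among WT libraries. Scand1, which encodes a SCAN-domain protein, was at 709, 3753, 1299 and 2242 in WT and 408, 81.6, 155 and 41.3 in AAV (log2 fold change -3.77 ± 0.69 (SE), adjusted p = 0.0408). H2afj, a variant of histone H2A, was at 518, 1025, 384 and 795 in WT and 249, 111, 117 and 130.3 in AAV (log2 fold change -2.14 ± 0.35 (SE), adjusted p = 0.0284). Mafa, known as an activator of the insulin gene in beta cells, was at 434, 1285, 921 and 585 in WT and 239.8, 137, 207 and 62.4 in AAV (log2 fold change -2.36 ± 0.45 (SE), adjusted p = 0.0467). In each of these 3 genes the AAV library closest to WT was animal 1. Scand1 was called in 2 of 8 analyses, those without WT animal 3 or AAV animal 1, highest adjusted p in the others 0.138. H2afj was called in 2 of 8 analyses, those without WT animal 3 or AAV animal 1, highest adjusted p in the others 0.11. Mafa was called in 1 of 8 analyses, that without WT animal 3, highest adjusted p in the others 0.141. Zfp771, a zinc-finger gene, fell by 2.33, and Ier5l, an immediate-early response gene family member, by 2.17 (adjusted p = 0.04 and 0.0478, limma), and each was called in 2 of 8 analyses. For Zfp771 these were the analyses without WT animal 1 or 3, and for Ier5l those without WT animal 3 or AAV animal 1. H2afj was also above KO, by 1.36 (adjusted p = 0.0127). H2afj has 20 near-identical annotated copies, so its reads may be split.

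Other named falls had varied roles. Prob1 was at 1436, 1641, 1534 and 931 in WT, 336, 364, 454 and 215 in AAV and 325, 622, 516 and 976 in KO (log2 fold change -2.03 ± 0.26 (SE), adjusted p = 0.00973), and was called in 8 of 8 analyses. KO was widely spread and reached the WT range in animal 4. Tpt1, the translationally controlled tumour protein, was at 753, 1556, 952 and 548 in WT and 310.1, 48.3, 179.5 and 51.4 in AAV (log2 fold change -3.01 ± 0.59 (SE), adjusted p = 0.048, called in 2 of 8 analyses, those without WT animal 3 or AAV animal 1, highest adjusted p in the others 0.141). Phospho1, a phosphatase of phosphocholine that acts in mineralization, was at 196, 375, 242 and 127 in WT and 37.2, 56.4, 76.8 and 52.3 in AAV (log2 fold change -1.996 ± 0.34 (SE), adjusted p = 0.0334, called in 2 of 8 analyses, those without WT animal 3 or 4, highest adjusted p in the others 0.111). Phospho1 and Tpt1 had no overlap between the groups. The less described genes 1110065P20Rik and D830050J10Rik fell by 1.43 and 1.73 on the log2 scale (adjusted p = 0.0284 and 0.0388, limma). The first was called in 2 of 8 analyses, those without WT animal 3 or AAV animal 4, highest adjusted p in the others 0.108, and the second was called in 1 of 8 analyses, that without WT animal 3, highest adjusted p in the others 0.113. Asb18, a muscle gene of the ankyrin-repeat SOCS-box family, fell by 1.62 (adjusted p = 0.047), with the KO mean between WT and AAV, and was called in 2 of 8 analyses, those without WT animal 3 or 4, highest adjusted p in the others 0.138.

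Genes that were new after vector were called against both WT and KO in the same direction. Oas2 (ENSMUSG00000032690, chromosome 5, 120730333 to 120749853, - strand), an interferon-induced synthetase of 2-5A oligonucleotides that detects double-stranded RNA, had normalized counts of 33.5, 15.95, 38.96 and 40.96 in WT, 143, 221, 73.2 and 133 in AAV and 36.7, 53.9, 63.1 and 35.4 in KO. Every AAV library was above every WT and KO library, with AAV animal 3 the lowest of the AAV libraries. The difference from WT was 2.09 ± 0.39 (SE, log2; adjusted p = 0.0455, limma) and from KO 1.51 (adjusted p = 0.0124). Oas2 was called in 2 of 8 analyses, those without WT animal 3 or AAV animal 3, highest adjusted p in the others 0.145. An antisense gene, Gm43068, overlaps Oas2, and strand use in counting is not given in the sources used here.

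Vwa3a, a gene with von Willebrand factor A domains, was at 39.8, 27.6, 25.97 and 36.1 in WT, 142, 134, 98.02 and 103 in AAV and 35.8, 28.2, 33.7 and 19.4 in KO (log2 fold change 1.85 ± 0.24 (SE), adjusted p = 0.0114). Its WT and KO values overlapped (KO minus WT -0.15, adjusted p = 0.691), and AAV was above both in every library, and it was called in 7 of 8 analyses, lost without AAV animal 2, highest adjusted p 0.0685. Pkn3, a kinase of the protein kinase N family, was at 84.2, 141, 114 and 98.5 in WT, 517, 351, 320.0 and 371 in AAV and 202, 193, 172 and 146 in KO (log2 fold change 1.82 ± 0.22 (SE), adjusted p = 0.00939), and was called in 8 of 8 analyses. Pkn3 missed the call between KO and WT by its fold change of 0.71 (adjusted p = 0.0262). The solute carrier genes Slc26a10 and Slc12a9 rose by 1.36 and 1.51 (adjusted p = 0.0237 and 0.0415, limma). Slc26a10 was at 103, 63.8, 93.3 and 97.5 in WT, 223, 275, 192 and 229 in AAV and 70.5, 95.8, 109.9 and 85.8 in KO, so that KO and WT overlapped and AAV was above both in every library. Slc26a10 was called in 4 of 8 analyses, lost without WT animal 1 or 4 or AAV animal 1 or 2, highest adjusted p 0.108, and Slc12a9 was called in 1 of 8 analyses, that without WT animal 3, highest adjusted p in the others 0.135.

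The other new genes were named after their values were seen. Bmp4, a secreted ligand of the TGF-beta family, was at 72.4, 59.5, 95.8 and 109 in WT, 285, 257, 159 and 184 in AAV and 91.8, 90.6, 144 and 77.8 in KO (log2 fold change 1.38 ± 0.26 (SE), adjusted p = 0.0467), and was called in 1 of 8 analyses, that without WT animal 3, highest adjusted p in the others 0.151. Xpo6, the nuclear exporter of actin, rose by 1.74, Vsig2 by 1.82, the organic anion carrier gene Slc10a6 by 1.08 and the noncoding AI838599 by 2.18 (adjusted p = 0.0481, 0.0481, 0.0487 and 0.0134, limma). Xpo6 was called in 1 of 8 analyses, that without WT animal 3, highest adjusted p in the others 0.148, and Vsig2 was called in 1 of 8 analyses, that without WT animal 3, highest adjusted p in the others 0.148. Slc10a6 was called in 0 of 8 analyses, highest adjusted p 0.159, and AI838599 was called in 6 of 8 analyses, lost without AAV animal 1 or 2, highest adjusted p 0.0861. Rsph3a, of the radial spoke of cilia, was the only new gene that was lower, at 76.9, 59.5, 62.5 and 44.9 in WT, 19.3, 20.1, 18.9 and 22.9 in AAV and 34.8, 54.7, 40.2 and 56.6 in KO (log2 fold change -1.52 ± 0.25 (SE), adjusted p = 0.03). AAV was below both other groups in every library, and Rsph3a was called in 3 of 8 analyses, those without WT animal 3 or 4 or AAV animal 4, highest adjusted p in the others 0.11. Its copy Rsph3b is near-identical, so reads may be split between them.

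No gene was called overcorrected by limma or by edgeR on the recovered reads, and DESeq2 called 2, Myh7 and Tnnc1. At an unadjusted p under 0.05 with the fold threshold, 6 genes lay on the far side of WT from KO in limma. These were Myh7, Tnnc1, Parvg, Cd209g, Gm15510 and AC163629.1, named after their values were seen. Myh7, the myosin heavy chain of slow fibres, was at 15.4, 106, 248 and 74.1 in WT, 1833, 4306, 1095 and 41.3 in AAV and 14.5, 11.1, 13.05 and 14.2 in KO. AAV animal 4 lay inside the WT range while the other 3 AAV libraries were at 1095 or more (log2 fold change 3.36 ± 1.31 (SE), adjusted p = 0.224), and without AAV animal 4 Myh7 was called overcorrected (log2 fold change 4.76, adjusted p = 0.0448). Tnnc1, the slow and cardiac troponin C, was at 170.1, 376, 205 and 459 in WT, 1497, 2923, 713 and 251 in AAV and 29.95, 29.9, 18.5 and 20.3 in KO (log2 fold change 1.75 ± 0.66 (SE), adjusted p = 0.206), again with AAV animal 4 inside the WT range, and it was not called without that library (2.39, adjusted p = 0.0679). In DESeq2 the differences from WT were 4.03 for Myh7 and 2.16 for Tnnc1 (adjusted p = 0.0164 and 0.00866).

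The 59 genes with the KO mean between WT and AAV included Map4k2. Map4k2, a kinase upstream of JNK signalling, was at 172, 199, 257 and 189 in WT, 928, 838, 634 and 573 in AAV and 327, 449, 449 and 369 in KO (log2 fold change 1.85 ± 0.20 (SE), adjusted p = 0.00567). KO missed the fold threshold against WT at 0.96 (adjusted p = 0.00513), and Map4k2 was called in 8 of 8 analyses. Ushbp1, a partner of the Usher protein harmonin, was at 337, 333, 334 and 369.6 in WT, 956, 923, 879 and 981 in AAV and 489, 569, 621 and 563 in KO (log2 fold change 1.44 ± 0.12 (SE), adjusted p = 0.00232). The 3 groups were separate in order, and Ushbp1 was called in 8 of 8 analyses. Dock6, an exchange factor for Rac1 and Cdc42, and Pear1, a receptor of platelets and endothelium, rose by 1.57 and 1.38 (adjusted p = 0.00567 for both, limma), and each was called in 8 of 8 analyses. Ushbp1, Dock6 and Pear1 were named after their values were seen.

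Interferon-related and splicing genes of the called set were named after their values were seen. Stat2, a transcription factor of the type I interferon response, was at 128, 129, 127 and 145 in WT, 317, 347, 216 and 305 in AAV and 166, 168, 189 and 202 in KO (log2 fold change 1.14 ± 0.19 (SE), adjusted p = 0.0284), with AAV above both other groups in every library. It was called in 2 of 8 analyses, those without WT animal 3 or AAV animal 3, highest adjusted p in the others 0.114. Sp100, of PML nuclear bodies, rose by 1.27 and Gbp9, an interferon-induced guanylate-binding protein, by 1.54, the latter with 3 near-identical copies (adjusted p = 0.0388 and 0.0481, limma). Sp100 was called in 2 of 8 analyses, those without WT animal 3 or AAV animal 4, highest adjusted p in the others 0.138, and Gbp9 was called in 1 of 8 analyses, that without WT animal 3, highest adjusted p in the others 0.159. Helz2, a helicase that interferon induces, was uncorrected rather than in between, at 110.4, 96.7, 136 and 113 in WT, 389, 435, 302 and 325 in AAV and 280.2, 291, 335 and 281 in KO (log2 fold change 1.66 ± 0.19 (SE), adjusted p = 0.00609), and was called in 8 of 8 analyses. Ccnl2 and Clk1, regulators of splicing, rose by 1.34 and 1.12 (adjusted p = 0.0134 and 0.0403, limma), and the cyclin partner Ccnt2 of transcription elongation rose by 1.14 (adjusted p = 0.0206). Ccnl2 was called in 6 of 8 analyses, lost without WT animal 1 or AAV animal 2, highest adjusted p 0.0685. Clk1 was called in 1 of 8 analyses, that without AAV animal 3, highest adjusted p in the others 0.139, and Ccnt2 was called in 4 of 8 analyses, lost without WT animal 1 or 2 or AAV animal 1 or 2, highest adjusted p 0.105.

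Gene lists for the tissue and the disease held few of the called genes. Of 734 distinct genes of 41 lists that were tested, 4 were called (0.545%, against 0.951% of all genes), and 29 had an unadjusted p under 0.05 with the fold threshold. The 4 were Oas2, Egfl7, Ndufb2 and Cox5b, and 37 lists held none. For 447 of the 734 the 95% interval of AAV minus WT lay inside -1 to 1, and over all genes this was so for 56.4%. The lists were chosen with earlier results of these data known.

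Markers of endothelium lay mostly above 0. Of 14 endothelial genes tested, 13 had a log2 fold change above 0 and 1 was called (46.8% and 0.951% over all genes). The median of the 14 was 0.77 against -0.03 over all genes, and 4 of them had every AAV value above every WT value (6.69% over all genes). Pecam1, the adhesion molecule of endothelial junctions, was at 782, 508, 1337 and 515 in WT and 1316, 1769, 1418 and 936 in AAV (0.87, 95% interval 0.17 to 1.58, adjusted p = 0.193). Cdh5, the endothelial cadherin, was at 889, 561, 1294 and 459 in WT and 1052, 1487, 1378 and 896 in AAV (0.68, 95% interval -0.03 to 1.38, adjusted p = 0.291). In both genes WT animal 3 was the highest of WT and lay within the AAV range. The summed level of the 14 genes was 4466 to 9784 in WT, 9179 to 14462 in AAV and 10020.5 to 12442 in KO, and no marker was at 0 in all libraries. Its part in the rises of Egfl7, Ccm2l, Arap3 and Robo4 was not tested. In smooth muscle and pericytes 8 genes had a median of 0.70 with none called, where Acta2 was at 0.30 (-0.39 to 0.99) and Myh11 at 1.06 (0.09 to 2.02, adjusted p = 0.24).

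The list of interferon and antigen presentation genes held 1 called gene, Oas2, and Stat2, Sp100, Gbp9 and Helz2 above are not on it. Of 27 tested, 21 were above 0 (46.8% over all genes), the median was 0.25 and 3 had every AAV value above WT (6.69% over all genes). Over all genes 0.951% were called. The class I heavy chains H2-K1 and H2-D1, which present peptides to T cells, differed by 0.26 (-0.05 to 0.58) and 0.08 (-0.22 to 0.39), intervals that lie inside a log2 fold change of 1. The class I gene H2-Q6, not on the list and named after its values were seen, was at 69.7, 53.2, 75.5 and 72.2 in WT and 185, 228, 183 and 162 in AAV (log2 fold change 1.47 ± 0.20 (SE), adjusted p = 0.0132), and was called in 6 of 8 analyses, lost without AAV animal 1 or 2, highest adjusted p 0.077. The KO libraries were at 35.8, 47.9, 178 and 166, with animals 1 and 2 below every WT library and animals 3 and 4 inside the AAV range. AAV minus KO was 1.14 (adjusted p = 0.104, limma). H2-Q6 has 8 near-identical annotated copies, H2-K1 and H2-D1 among them, so reads may be split.

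Nuclear subunits of the respiratory chain lay mostly below 0. Of all genes tested 53.2% were below 0 and 0.221% were called lower. Of 37 genes of complex I, 34 were below 0 with a median of -0.22 and 1 called, and of 39 genes of complexes II to V, 35 were below 0 with a median of -0.30 and 1 called. Ndufa1 and Ndufa2 of complex I differed by -0.27 (-0.64 to 0.11) and -0.22 (-0.80 to 0.36), and Sdha and Sdhb of complex II by -0.22 (-0.76 to 0.32) and -0.30 (-0.83 to 0.22). These 4 intervals lie inside -1 to 1. All 7 tested genes that mitochondrial DNA encodes were below 0, with a median of -0.61 and none called. Of these mt-Nd1 was at 339303, 197487, 595414 and 313579 in WT and 334645, 405913, 306204 and 157331 in AAV (-0.23, -1.14 to 0.67), with WT animal 3 the highest, and mt-Nd2 differed by -0.61 (-1.74 to 0.53, adjusted p = 0.547). Of other lists, 57 of 72 cytosolic ribosomal protein genes (median -0.22), 24 of 30 proteasome genes (median -0.23) and 12 of 14 dystrophin complex genes (median -0.36) were below 0, with none called.

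Lysosomal and glycogen lists held no called gene, where 0.951% of all genes were called. Of 28 lysosomal genes, 23 were below 0 (53.2% over all genes) with a median of -0.26. Ctsa, protective protein of the lysosome, differed by -0.18 (-0.62 to 0.27) and the protease gene Ctsb by -0.46 (-0.98 to 0.05). Of 17 cytosolic glycogen enzymes the median was 0.06. Gys1, glycogen synthase of muscle, was at 13415, 15676, 13684 and 12401 in WT and 17891, 16531, 16996 and 15410.0 in AAV (0.28, -0.03 to 0.59, adjusted p = 0.314), and Gyg, glycogenin, which primes glycogen, was at 11579, 10869, 12300.2 and 10438 in WT and 6989, 10635, 9521 and 7210.4 in AAV (-0.42, -0.79 to -0.04, adjusted p = 0.24). Both intervals lie inside -1 to 1. The 16 genes of the lysosomal V-ATPase had a median of -0.22 and the 24 autophagy genes of -0.08, with none called.

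The calcium channel genes that the study names were examined one by one. Cacng7, a gamma subunit, was at 80.5, 37.2, 150.2 and 36.1 in WT, 75.8, 92.6, 92.1 and 57.8 in AAV and 745, 929.6, 1077 and 1017 in KO, so that AAV overlapped WT (0.29, -0.68 to 1.27, adjusted p = 0.747) and was far below KO (-3.56, adjusted p = 8.16e-06). Cacna1c, the pore of the cardiac L-type channel, was at 38.00, 19.1, 31.6 and 30.2 in WT, 60.6, 87.6, 86.2 and 65.2 in AAV and 78.3, 63.3, 69.6 and 91.1 in KO. AAV lay above WT without overlap and beside KO, and missed the call at an adjusted p of 0.0527 (limma, 1.32, 0.71 to 1.94). Cacna2d4, an auxiliary subunit, was at 69.7, 42.5, 101 and 41.9 in WT and 74.4, 105, 351 and 50.5 in AAV (0.85, -0.38 to 2.08, adjusted p = 0.436), where AAV animal 3 was far above the WT range and the other 3 were in or near it.

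Fibre type genes varied widely among mice. Of 12 slow fibre genes 8 were above 0 (46.8% over all genes), with a median of 0.73 and none called (0.951% over all genes). Myl2, the slow regulatory light chain, was at 32.6, 727, 846 and 1083 in WT and 2293, 4728, 1052 and 158 in AAV (1.58, -1.19 to 4.36), so that AAV animals 3 and 4 lay inside the WT range and animals 1 and 2 above it. Of 15 fast fibre genes the median was -0.14 with none called, and Myh4, the chain of the fastest fibres, differed by -0.03 (-0.79 to 0.73) and Myh1 by -0.27 (-0.96 to 0.42). In developing and cardiac sarcomere genes 7 of 9 were below 0 (53.2% over all genes, median -0.56). The embryonic and perinatal chains Myh3 and Myh8 differed by -0.85 (-2.61 to 0.91) and -0.58 (-1.90 to 0.73), with intervals over 2 log2 units wide. Denervation and damage genes had a median of -0.54, of which Sprr1a, a damage-induced gene, was at 194, 309, 17.04 and 308 in WT and 84.1, 9.06, 3.54 and 151 in AAV (-5.04 to 0.46). Chrna1, the acetylcholine receptor subunit that rises on denervation, was at 3116, 3828, 435 and 3099 in WT and 1096, 606, 338 and 3099 in AAV (-2.90 to 0.63). WT animal 3 was far below the other WT libraries, AAV animals 1, 2 and 4 lay inside the WT range and AAV animal 3 lay below it.

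Markers of other cell types were measured in every library. Of 16 macrophage genes 15 were below 0 (53.2% over all genes) with a median of -0.81 and none called. Between KO and WT their median was -1.61 and 12 were called lower, where 13.9% of all genes were called in either direction. Cd68, a lysosomal protein of macrophages, was at 560.1, 590.0, 69.8 and 568 in WT and 127, 74.5, 35.4 and 415 in AAV (-1.63, -3.50 to 0.24), and Emr1, the F4/80 antigen, at 98.6, 53.2, 34.1 and 86.8 in WT and 37.2, 23.2, 7.09 and 66.1 in AAV (-1.26, -2.62 to 0.09). WT animal 3 was the lowest of WT in both genes, and the summed macrophage level was 2021 to 10394 in WT, 1304 to 8294 in AAV and 1134 to 2014 in KO. Of 11 nerve genes 9 were above 0 (46.8% over all genes, median 0.78), with the myelin gene Mbp at 0.44 (-0.40 to 1.29). Of 13 adipocyte genes 12 were above 0 (median 0.92), 2 had every AAV value above WT and 0 were called (46.8%, 6.69% and 0.951% over all genes for the 3 counts), where Adipoq was at 214, 21.3, 97.4 and 13.6 in WT and 75.8, 143, 132 and 59.6 in AAV (-0.79 to 2.64) and Plin1 differed by 0.15 (-1.64 to 1.95). The globins Hba-a1 and Hba-a2 differed by 0.74 (0.11 to 1.37) and 0.78 (0.13 to 1.44). All 6 liver genes tested were above 0, with the highest median of the lists (1.14) and 0 called, and their summed level was 47.8 to 276 in WT, 162.6 to 217.5 in AAV and 137.2 to 1263.9 in KO. Albumin, the main plasma protein of liver, was near 0, with Alb at 2.71, 0, 1.62 and 2.93 in WT and 1.38, 2.01, 5.91 and 25.7 in AAV and Apoa1 at 0.90, 0, 0 and 0 and 0, 2.01, 1.18 and 11.9, of which AAV animal 4 was the highest in both.

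**Figure D5:**
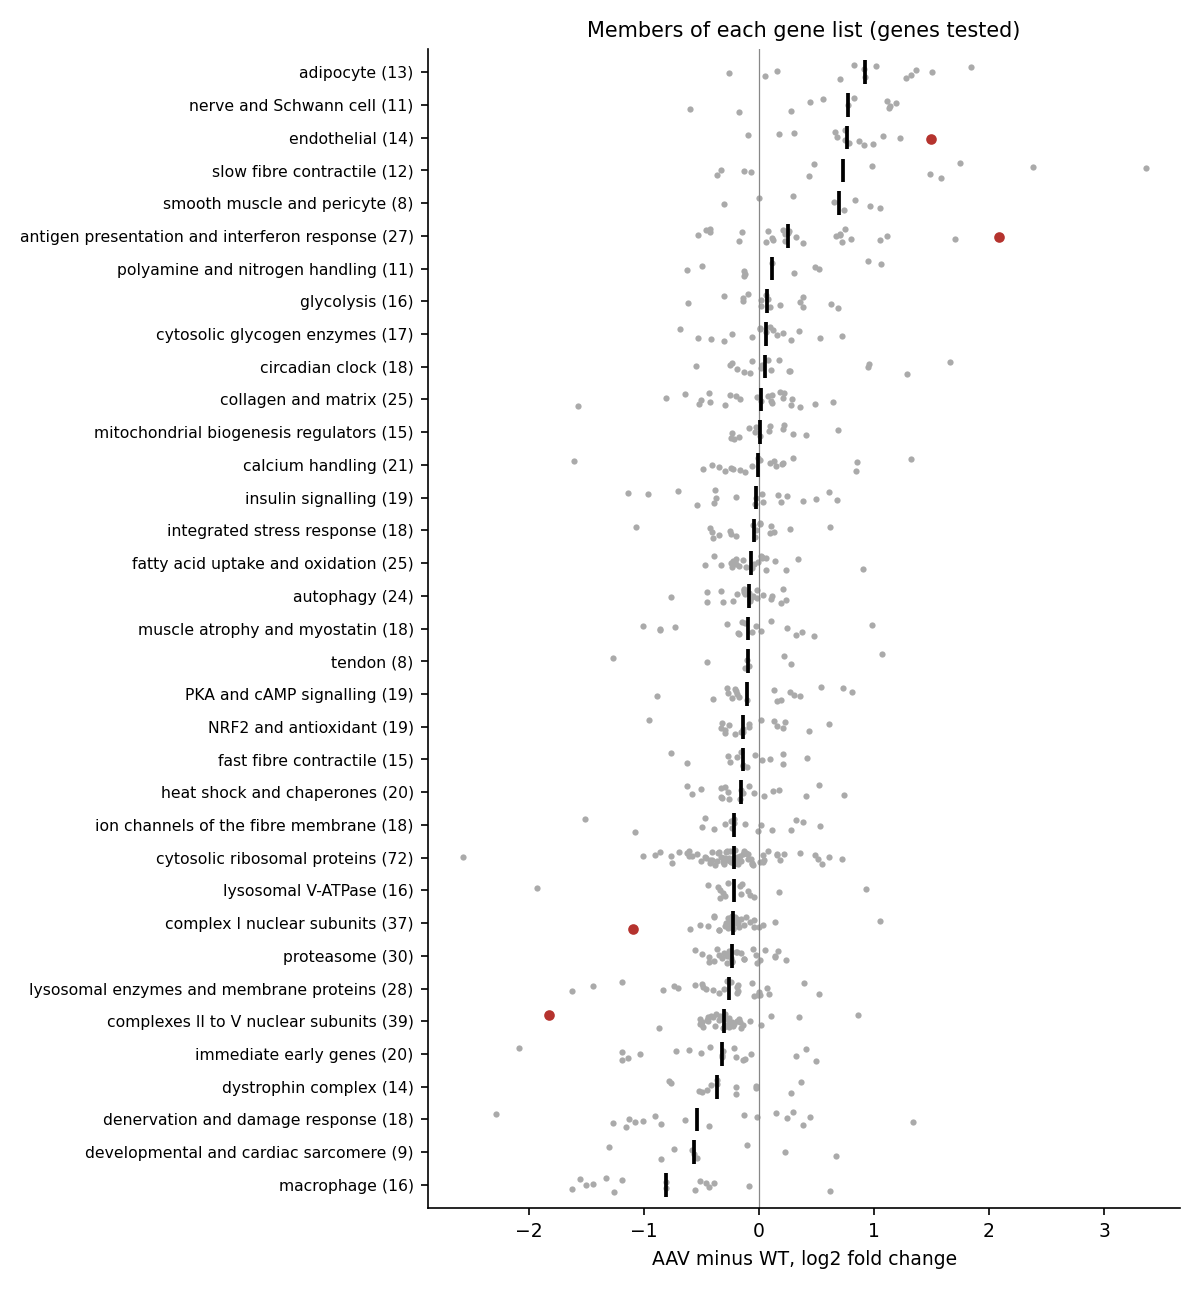
Log2 fold change of AAV minus WT for each tested member (points) of the 35 lists with at least 8 tested genes, with the list's median as a black line, called genes in red and the number tested in brackets. Oas2 and Egfl7 lie at the right and Cox5b and Ndufb2 at the left as the called members, and the medians run from -0.81 (macrophage) to 0.92 (adipocyte).

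Features of the transcript that the calls did not use are given without a test. Among protein-coding genes, the 101 that were higher had a median longest annotated transcript of 4366 bases, the 25 lower genes found in the annotation 2599, and the 13346 genes tested and found 3436. The annotation holds a retained-intron transcript for 76.2% of the higher genes, 32% of the lower genes and 57.8% of all. The GC content of the longest transcript had a median of 53.6% in the higher, 54.6% in the lower and 50.02% in all genes. The part of library depth, which was lower in every AAV library than in every WT library, was not tested. Of the 142 called genes 60 overlap a gene on the other strand and 20 have near-identical copies. Those with an opposite-strand neighbour include Als2cl, Egfl7, Meg3, Map4k2, Pkn3, Vwa3a, Ndufb2, Scand1, H2afj and Rsph3a. By chromosome the share of tested genes called ran from 0% on M and Y (19 and 5 genes) and 0.198% on X to 1.65% on chromosome 2.

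A further 4 called genes were all lower and could not be sorted, since they were too low in KO and AAV for that comparison. Hist1h2al, annotated as a processed pseudogene with 23 near-identical copies, was at 29.9, 42.5, 62.5 and 34.1 in WT and 0, 0, 0 and 0.92 in AAV, and was listed at 0 in all 4 KO libraries. The pseudogene Gm12350, with 5 near-identical copies, was at 21.7, 38.3, 26.8 and 19.5 in WT and 8.27, 3.02, 7.09 and 4.59 in AAV. 1810049J17Rik was at 5.43, 28.7, 17.04 and 9.75 in WT and 1.38, 0, 0 and 0.92 in AAV, and 4933440N22Rik at 8.14, 15.95, 12.2 and 9.75 in WT and 1.38, 2.01, 2.36 and 0.92 in AAV. These 4 genes were lower in every AAV library than in any WT library. Hist1h2al was called in 8 of 8 analyses, Gm12350 was called in 1 of 8 analyses, that without WT animal 3, highest adjusted p in the others 0.141, and the other pair was called in 0 of 8 (highest adjusted p 0.141 for each).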

How the data were processed

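RNA-Seq of quadriceps was analysed in 8 libraries (4 WT, 4 AAV), with 4 KO libraries set beside them. The deposited values are a signal per gene, counts that the authors divided by DESeq2 size factors. According to the study's methods and the submitters' processing notes, reads were trimmed with Trim Galore 0.4.1 (at least 20 nt kept), mapped uniquely with STAR to GRCm38, counted with HTSeq 0.6.1 and tested with DESeq2 1.16.1, where any library reached 10 reads. The deposited tables also hold the authors' own fold changes and p-values, which were not used. Strand use in counting is not given in the sources used here.

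Whole reads were recovered from the value steps (100% of values whole within 0.01 in each library) for depth and for count tests. A gene that reached a value of 10 in one or more of the compared libraries was tested with limma 3.58.1 (R 4.3.3, trend) on log2(value + 1), two-sided, with Benjamini-Hochberg adjustment over all genes tested. Confidence intervals are at 95%. Scripts were tested on simulated data. Alternatives were edgeR 4.0.16 and DESeq2 1.42.0 on recovered reads, total-reads scaling, a pseudocount of 0.1, no filter, a mean of at least 50, all 12 libraries in one fit, a replicate block, adjusted p alone, each library left out, and both libraries with high Gaa left out. Fits without a library assume that the rest vary alike. Labels name separate animals, and p-values measure only the spread between these samples.

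Named genes were Gaa, the 12 largest rises and 12 largest falls among called protein-coding genes whose mean reached 50 without overlap of the groups, the 4 per class and direction with the lowest adjusted p under the same conditions, up to 4 called members and the first 2 members of each list (printed for a subset of the lists), and Cacng7, Cacna1c and Cacna2d4. Others are said to be named after their values were seen. Members and lists were chosen with earlier results of these data known. Positions come from GENCODE M21, which held 15186 of 15344 gene IDs, and copies were sought with BLAST 2.17.0.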

Additional observations from a re-analysis of the deposited data

Results flagged for a closer look

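Among 220 groups of 4 libraries, 20 had 1 library whose gap to its nearest neighbour was above Dixon's critical value for its share of the group's range, a gap that chance gives in about 1 of 20 groups. In WT these were Gaa (14640) and Mir5115 (6162) in animal 2, Arap3 (350), Myh3 (166), Cd68 (69.8), H2-D1 (1673), Adcy4 (207) and Mbp (694) in animal 3, Meg3 (566), Ushbp1 (370) and Stat2 (145) in animal 4, and Apoa1 (0.905) and Vash1 (140) in animal 1. In AAV they were Gaa (9854), Robo4 (391), Apoa1 (11.9) and Hist1h2al (0.918) in animal 4, and Fam193b (2047), H2afj (249) and Krba1 (4770) in animal 1. Of the WT genes, Myh3, Cd68, H2-D1 and Vash1 were the lowest of their group and the others the highest, and of the AAV genes Robo4 was the lowest.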

How the results depend on the processing

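The called genes named in the text kept their sign under each alternative that tested them (the filter on a mean of 50 left 63 of 69). Leaving libraries out could not change a sign, since the AAV and WT values of these genes did not overlap. The number of genes called (142) was 417 with DESeq2, 250 with total-reads scaling, 397 with all 12 libraries in one fit and 10 without both libraries of high Gaa, and 18 to 330 with 1 library left out. Uncorrected genes (68) numbered 171 with DESeq2, 179 with all 12 libraries, 6 without the libraries of high Gaa, 141 by adjusted p alone and 12 to 207 with 1 library left out. Overcorrected genes (0) numbered 2 with DESeq2 and 0 to 1 with 1 library left out. New genes (11) numbered 53 with DESeq2, 26 with total-reads scaling, 43 with all 12 libraries, 1 without the libraries of high Gaa, 34 by adjusted p alone and 1 to 16 with 1 library left out. Fits without libraries have fewer samples, and the cause of the other differences was not tested. edgeR called 126 genes, of which 121 were among the 142, and DESeq2 shared 140 with them.

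Some genes that were not called changed sign. Gaa was at -0.34 with edgeR, -0.39 with DESeq2 and -0.51 to 1.79 with 1 library left out. Myh4 was at 0.0183 with edgeR, 0.12 with total-reads scaling, 0.15 without the libraries of high Gaa and -0.21 to 0.0941 with 1 library left out. mt-Nd1 was at -0.49 to 0.0510 with 1 library left out. Plin1 was at -0.60 with edgeR, -0.61 with DESeq2 and -0.44 to 0.88 with 1 library left out.

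With the replicate number as a block, 120 genes were called, 60 uncorrected, 0 overcorrected and 9 new, and 87 of the 120 were among the 142. Deviations of same-numbered WT and AAV libraries correlated at -0.07, -0.35, 0.55 and 0.48, so the numbers were not taken to pair the samples. AAV libraries held 22122233 to 31974197 reads, which limits genes with few reads most.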
